A study of Rattus norvegicus with 6 samples.

Results

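The genes described here encode the enzymes that carry fatty acids into mitochondria and oxidise them, the ketone body enzymes, and enzymes of the citrate cycle. The list held 40 gene symbols, and a member was any gene in the deposited expression table whose name equalled a listed symbol. Of the 40 listed symbols 39 were found among the 30957 genes of the table; Eci2 was not found by name. All 39 passed the filter on low counts. Ribosomal-RNA-depleted total RNA of the flexor digitorum longus, a deep flexor of the toes in the hind limb, was sequenced in 6 libraries from wild-type Sprague-Dawley rats. The ACS group comprised 3 libraries taken 18 h into acute osteofascial compartment syndrome, abbreviated ACS, a state of high pressure in a closed muscle compartment that cuts off its blood supply. It was induced with a low-elastic band tied through the skin around the knee in a loop smaller than the limb. The Control group comprised 3 libraries at 0 h. The treatment label reads ACS for all 6 libraries, so the groups rest on the sample titles. Separate rats are not named in the labels, and each p-value below refers to variation among these libraries alone, part of which may be technical. Time after ligation and the syndrome itself cannot be told apart, because no unligated muscle at 18 h is among the samples analysed here.

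Library totals were 14340865, 19376341 and 18916880 counts in ACS replicates 1 to 3, against 18843880, 18450886 and 21003928 counts in Control replicates 1 to 3. ACS replicate 1 stood apart: genes of the mitochondrial chromosome took 43.4% of its counts, against 4.82% and 5.33% in the other ACS libraries and 7.52% to 8.60% in the Control libraries. The main counts and medians are therefore given with and without it, as is each member's fold change where leaving it out moved a printed value by more than 1.5 times. All 39 members are nuclear genes, and levels are given as CPM, counts scaled to library size with TMM factors. Markers of skeletal muscle fibres were abundant in every library, and 10 of 12 listed markers, Ckm and Acta1 among them, were found. They summed to 87787, 124625 and 215375 CPM in ACS replicates 1 to 3, against 161118, 147858 and 137328 CPM in Control replicates 1 to 3. ACS replicates 1 and 2 lay below every Control library and ACS replicate 3 lay above. The part of fibre content in the members' values was not tested. The tissue is bulk muscle, so fewer cells of a type and less RNA per cell cannot be told apart.

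Muscle mitochondria obtain much of their energy from long-chain fatty acids, which enter the matrix as carnitine esters. CPT1 on the outer membrane makes the ester, a carrier exchanges it for free carnitine, and CPT2 restores the acyl-CoA. Beta-oxidation then repeats a cycle of dehydrogenation, hydration, a second dehydrogenation and thiolysis, and electrons from the first step pass through the electron transfer flavoprotein to ubiquinone. The acetyl-CoA released enters the citrate cycle. Many of these genes are textbook targets of the nuclear receptors PPAR and ERR and of their coactivator PGC-1alpha. The dehydrogenations and the citrate cycle hand their electrons to the respiratory chain.

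None of the 39 members passed the threshold of an adjusted p of 0.05 in edgeR's quasi-likelihood test, in either direction, while 0.707% of the 12873 genes tested were called lower in ACS and 3.43% higher. At an unadjusted p under 0.05, 11 members were lower and 1 was higher in ACS, against 7.98% and 15.5% of all genes tested. DESeq2 called 4 members lower, namely Acaa2, Acadm, Decr1 and Etfb, and called Ucp2 higher. It called 2.28% lower and 7.03% higher of the 18776 genes with any count, a larger base than the 12873 of edgeR. Limma-voom called 0 members, where it called 0.552% of all genes lower and 2.04% higher. Limma on log2(FPKM + 1) called Decr1 lower and no member higher, where it called 2.43% and 2.26% of its 11040 genes. These shares of all genes are the ones to set beside the counts of each list below. Without any 1 of the Control libraries edgeR called no gene of the whole table, while 2075, 2063 and 2289 genes had an unadjusted p under 0.05 without Control replicates 1, 2 and 3.

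Most fold changes of the members were negative without passing the test. The fitted log2 fold change of ACS over Control was below 0 for 35 of 39 members, against 50.7% of all genes tested. Their median log2 fold change was -0.51, against -0.01 over all genes tested. Without ACS replicate 1 it was below 0 for 34 of 39, against 50.3%, and the median was -0.34 over the members. That fit called 0 members, at 4.99% of all genes higher and 1.69% lower, with 8 members lower and 1 higher at an unadjusted p under 0.05, against 9.54% and 14.1% of all genes. The 4 members with a positive fold change were Ucp2, Ucp3, Acot2 and Acacb, of which Ucp3, Acot2 and Acacb turned negative without ACS replicate 2, at -0.24, -0.48 and -0.43. Acot2 was also negative with limma on FPKM, Acacb was negative under 10 of 18 settings (edgeR as above and 17 alternatives), and Ucp2 was positive under all 18. In 16 members every ACS library lay below every Control library, as it did in 14.8% of all genes tested; Ucp2 alone lay above in every ACS library, as 16.7% of all genes did, and the groups overlapped in 22. With ACS replicates 2 and 3 alone, 16 members still lay below every Control library, as 19.9% of genes did. The 95% interval of the log2 fold change lay below 0 for 11 members, above 0 for 1, and included 0 for 27. An exact two-sided permutation test on 3 against 3 libraries cannot go below 0.1, the p that 17 members reached.

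**Figure D1:**
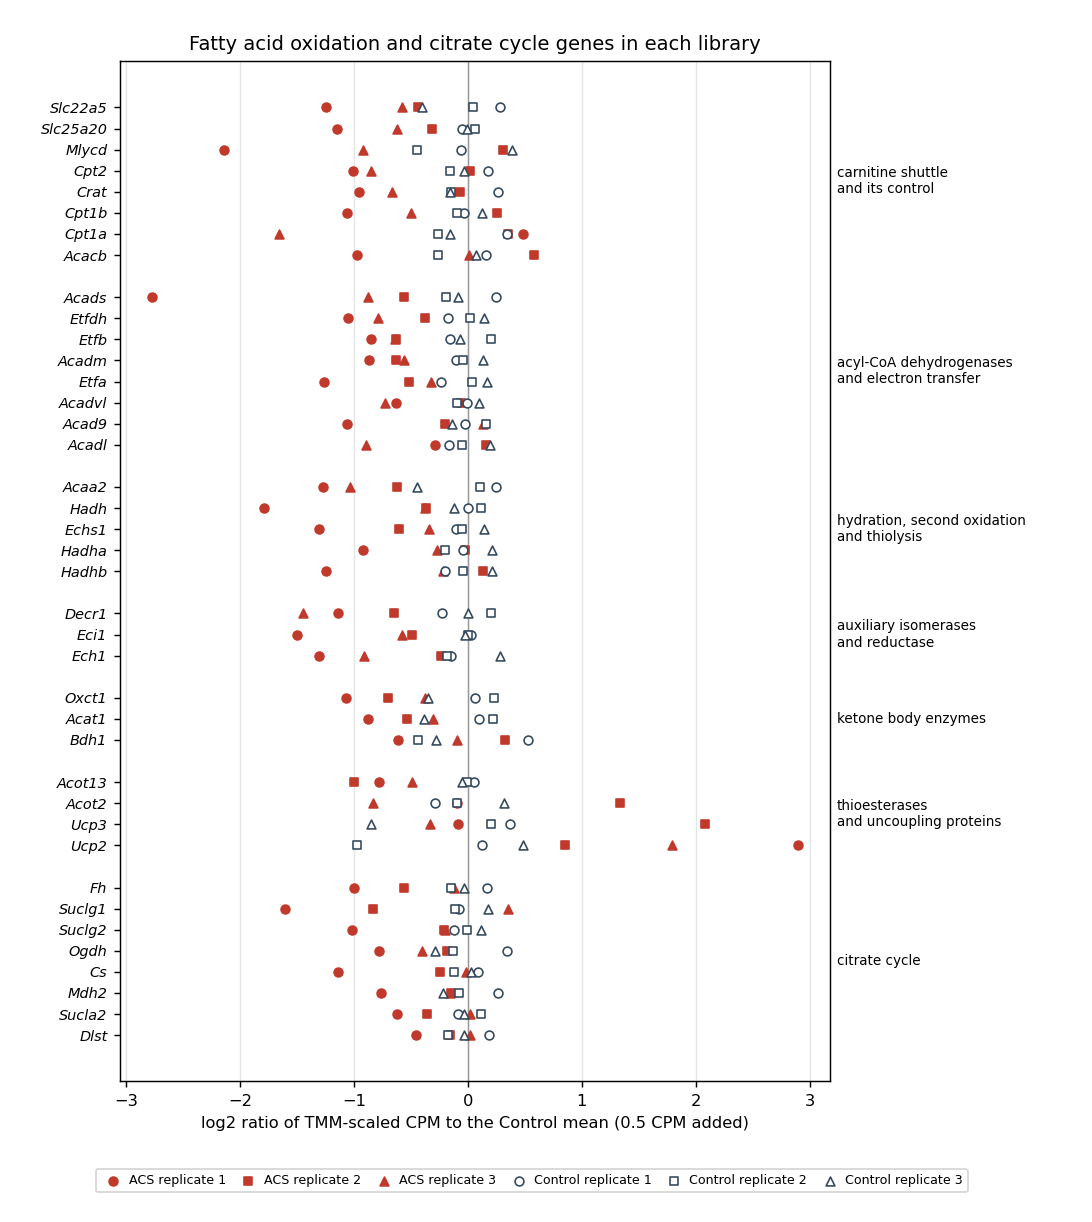
Level of each member in each of the 6 libraries, as the log2 ratio of its TMM-scaled CPM to the mean of the 3 Control libraries after 0.5 CPM was added. Filled red symbols are ACS libraries and open symbols are Control libraries, with a circle, square and triangle for replicates 1, 2 and 3. ACS replicate 1 is the lowest of the 6 libraries for 31 of 39 members, and Ucp2 is the only member with all 3 ACS libraries above all 3 Control libraries.

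The 3 ACS libraries differed among themselves more than the Control libraries did. ACS replicate 1 was the lowest ACS library for 31 of 39 members and lay below every Control library for 35, where 43.1% of all genes tested lay below. Its median log2 ratio to the Control mean was -1.01 over the members, a ratio of 0.498. ACS replicate 2 was the highest ACS library for 24 members. It lay below every Control library for 22 members, inside their range for 11 and above it for 6, against 36.4% below and 36.5% above over all genes, and its median log2 ratio was -0.23. The 6 members above the range in ACS replicate 2 were Acacb, Cpt1a, Cpt1b, Acot2, Ucp2 and Ucp3, all of them in the entry step or among the thioesterases and uncoupling proteins. ACS replicate 3 lay below every Control library for 27 members, against 32.7% of all genes, with a median log2 ratio of -0.40. The median log2 ratio over all genes tested was -0.07, -0.03 and -0.01 in ACS replicates 1, 2 and 3. The coefficient of variation was larger in ACS than in Control for 34 of 39 members, as it was for 79.2% of all genes tested, with medians over the members of 32.4% in ACS and 13.9% in Control.

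As a share of all counts the members took 0.288%, 0.702% and 0.528% of ACS libraries 1 to 3, against 0.806%, 0.763% and 0.792% of Control libraries 1 to 3. With the mitochondrial chromosome left out of the total the shares were 0.508%, 0.738% and 0.558% in ACS, against 0.882%, 0.832% and 0.856% in Control. The ACS libraries were below the Control libraries on both counts, and ACS replicate 2 was nearest to them.

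**Figure D2:**
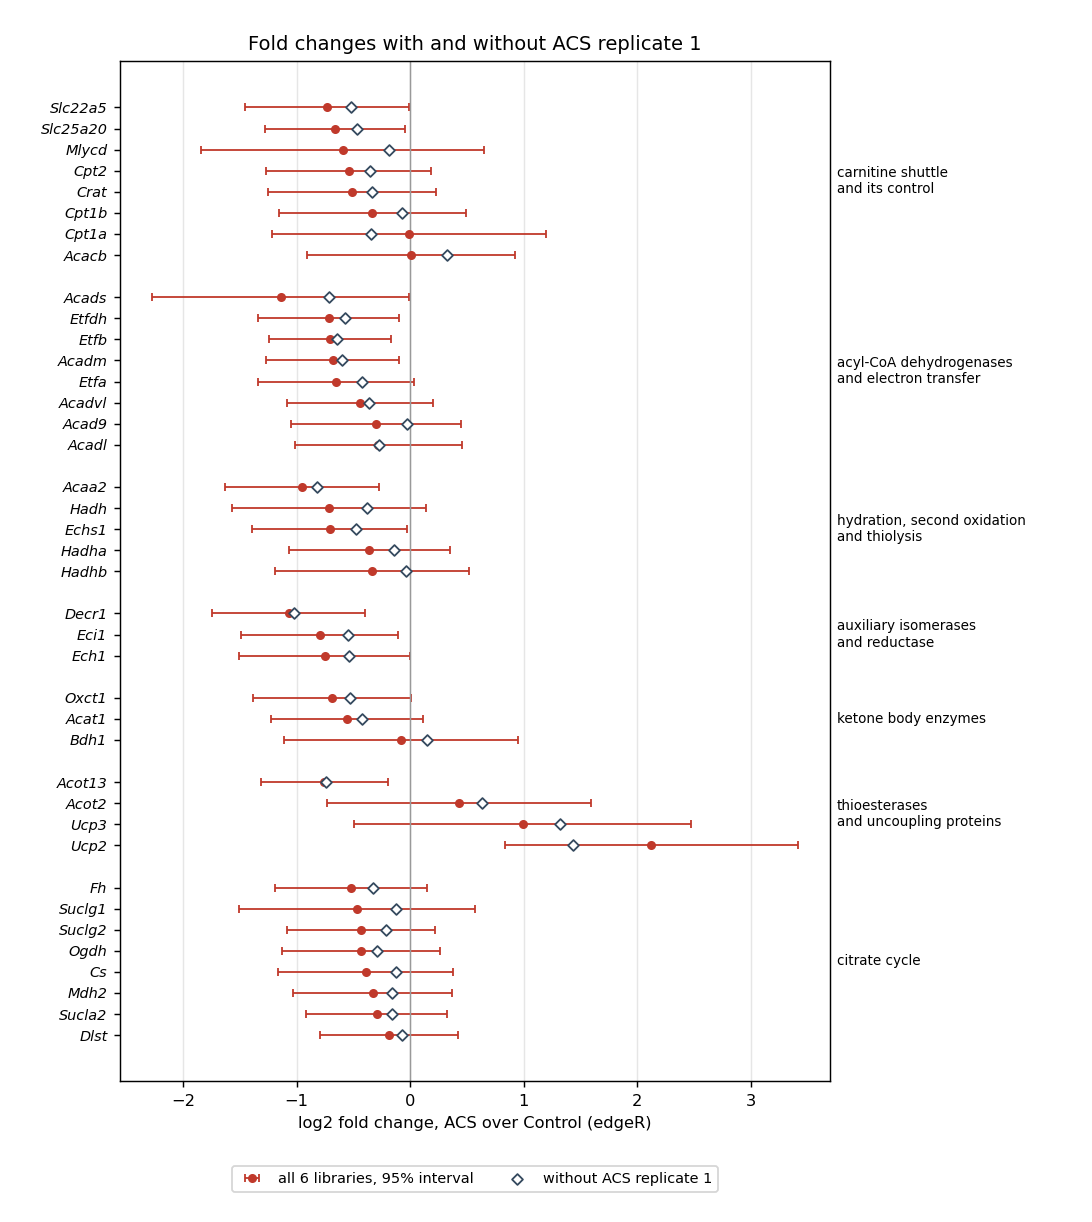
Fitted log2 fold change of ACS over Control for each of the 39 members, ordered within its role. Red circles with bars are the edgeR estimates from all 6 libraries with 95% intervals, and open diamonds are the estimates without ACS replicate 1. Ucp2 has the largest positive value, 2.12 with all libraries and 1.43 without ACS replicate 1, and Acads and Decr1 have the most negative values with all libraries.

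Of the 8 genes of the carnitine shuttle and its control, 7 had a fold change below 0, with a median of -0.53, or -0.34 without ACS replicate 1. None passed the edgeR threshold, 2 were lower at an unadjusted p under 0.05, and DESeq2, limma-voom and limma on FPKM called 0. Slc22a5, the plasma membrane carnitine transporter OCTN2, had 9.17, 16.4 and 14.9 CPM in ACS, against 27.4, 23.1 and 16.9 CPM in Control. Every ACS library was below every Control library, by a small margin at ACS replicate 2. The fitted log2 difference was -0.73 (SE 0.316, edgeR adjusted p = 0.206). Slc25a20, the carnitine-acylcarnitine carrier of the inner membrane, also lay apart, at 30.2, 54.3 and 43.8 CPM in ACS against 65.2, 70.5 and 67.4 CPM in Control. Crat, carnitine acetyltransferase, was the member of this group with the highest level per length. It had 230.1, 426 and 279.8 CPM in ACS, against 535, 402 and 399.9 CPM in Control, and ACS replicate 2 lay inside the Control range. The log2 fold change of Crat was -0.51 (SE 0.325, edgeR adjusted p = 0.371), and -0.34 without ACS replicate 1.

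The 2 CPT1 isoforms did not share a pattern over the libraries. Cpt1b, the muscle isoform, which overlaps Chkb on the same strand by 516 bases and commits acyl-CoA to mitochondrial entry, had 166, 415 and 245 CPM in ACS, against 338, 325 and 378 CPM in Control. One ACS library was above and the other 2 were below the whole Control range, and the mean was 275 ± 127 CPM in ACS and 347 ± 27.3 CPM in Control (SD, n = 3 each). On the log2 scale ACS over Control was -0.33 (SE 0.361, edgeR adjusted p = 0.607), and -0.08 without ACS replicate 1. Cpt1a, the isoform of liver and most other tissues, had 16.7, 15.2 and 3.40 CPM in ACS, against 15.1, 9.77 and 10.49 CPM in Control. Here ACS replicate 3 was the low library, and the means of 11.7 ± 7.26 CPM in ACS and 11.8 ± 2.90 CPM in Control (SD, n = 3 each) nearly coincided. The log2 fold change of Cpt1a was -0.01, with a 95% interval of -1.21 to 1.19 that leaves a change of more than 2-fold in either direction within reach, and it was -0.34 without ACS replicate 1. Per length, Cpt1a made up 8.05%, 3.10% and 1.20% of the summed FPKM of both isoforms in ACS, against 3.76%, 2.56% and 2.37% in Control, so Cpt1b was the main isoform in every library.

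Acacb and Mlycd make and remove malonyl-CoA, the inhibitor of CPT1. Acacb, acetyl-CoA carboxylase 2, had 221, 650 and 436 CPM in ACS, against 485, 362 and 455 CPM in Control. ACS replicates 1 and 2 lay on opposite sides of the Control range and the log2 fold change was 0.01 (95% interval -0.91 to 0.92, edgeR adjusted p = 0.996), and 0.32 without ACS replicate 1. Its sign depended on the setting, between -0.44 and 0.32. Mlycd, malonyl-CoA decarboxylase, had 10.7, 60.4 and 25.6 CPM in ACS and 46.8, 35.6 and 63.9 CPM in Control, an overlap set by ACS replicate 2.

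Among the acyl-CoA dehydrogenases and the electron transfer flavoprotein genes all 8 had a fold change below 0, with a median of -0.67, or -0.50 without ACS replicate 1. By edgeR, limma-voom and limma on FPKM 0 passed, 4 were lower at an unadjusted p under 0.05 in edgeR, and DESeq2 called Acadm and Etfb lower. In 5 of the 8 every ACS library lay below every Control library, as in 14.8% of all genes tested. Acadm, the medium-chain dehydrogenase, had 194, 228 and 239 CPM in ACS, against 328, 344 and 388 CPM in Control. The means were 220.1 ± 23.7 CPM in ACS and 353 ± 31.3 CPM in Control (SD, n = 3 each), well apart, with the 3 ACS libraries close together. Acadm had a log2 fold change of -0.68 (SE 0.258, edgeR adjusted p = 0.157), and -0.60 without ACS replicate 1.

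Acads (ENSRNOG00000001177, Rnor 6.0 chr12:47254484-47263747, plus strand), the short-chain dehydrogenase, had the most negative fold change of any member, -1.14 (SE 0.496, edgeR adjusted p = 0.209). It had 7.95, 38.6 and 31.0 CPM in ACS, against 67.7, 50.01 and 53.7 CPM in Control. ACS replicate 1 was far below the other ACS libraries, and without it the log2 fold change was -0.72. Acadl, the long-chain dehydrogenase, had 205, 280.1 and 135 CPM in ACS, against 224, 242 and 288 CPM in Control, and the groups overlapped. Its log2 fold change of -0.28 (SE 0.323) was the least negative of this group, with an edgeR adjusted p of 0.629. Acadvl, the very-long-chain dehydrogenase of the inner membrane, and Acad9, which also serves complex I assembly, overlapped as well, at -0.44 and -0.30. Without ACS replicate 1 these were -0.36 for Acadvl and -0.03 for Acad9.

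The genes of the electron transfer route lay apart, as Acadm and Acads did. The margin was small in Etfa, at 90.9 CPM in ACS replicate 3 against 97.1 CPM in Control replicate 1. Etfb, the beta subunit of the flavoprotein, had 54.1, 63.0 and 62.7 CPM in ACS, against 88.0, 113 and 93.1 CPM in Control. The 3 ACS libraries were within a narrow range and all below Control, at a log2 fold change of -0.71 (SE 0.235, edgeR adjusted p = 0.116). Etfa, the alpha subunit, and Etfdh, the oxidoreductase that passes the electrons to ubiquinone, were also lower in every ACS library than in any Control library, with log2 fold changes of -0.65 and -0.72, or -0.42 and -0.57 without ACS replicate 1. The share of Etfa in the summed FPKM of the Etfa and Etfb pair was 37.0%, 45.9% and 49.4% in ACS, against 42.6%, 41.1% and 48.2% in Control, with overlapping groups.

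The promoters of 34 of the 39 members matched the RefSeq table of the GRCr8 assembly, in windows of 250 bases before the annotated start. They were searched on both strands for AGGTCA, the half-site that PPAR and ERR share with other nuclear receptors. It occurred in 5 of 34 member promoters, or 14.7%, against 14.1% of all 33469 promoters and 10.2% of the 9054 promoters of tested genes. The members were Acacb, Acadvl, Echs1, Eci1 and Ucp3. Neither the extended half-site TCAAGGTCA nor the direct repeat AGGTCANAGGTCA, both of which contain the half-site, was present in a member promoter. They occurred in 0.388% and 0.0508% of all promoters, and in 0.188% and 0.0442% of those of tested genes. Motifs this rare would be absent from most sets of 34 promoters, so their absence does not set the members apart. The Acadvl promoter (GRCr8, chr10:55236706-55236955, minus strand) is shown because it carries the half-site at 2 places, at -169 and -17 from the start, in capitals.
Acadvl: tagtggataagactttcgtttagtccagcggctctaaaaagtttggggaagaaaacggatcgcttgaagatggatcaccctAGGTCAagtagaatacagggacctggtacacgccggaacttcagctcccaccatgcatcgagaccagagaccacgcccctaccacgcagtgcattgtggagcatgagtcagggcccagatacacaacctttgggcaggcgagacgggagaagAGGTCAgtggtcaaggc

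Of the 5 genes of hydration, second oxidation and thiolysis, all had a fold change below 0, with a median of -0.71, or -0.38 without ACS replicate 1. No gene of the 5 passed by edgeR, limma-voom or limma with FPKM, 2 were lower at an unadjusted p under 0.05 in edgeR, and DESeq2 called Acaa2 lower. Acaa2 (ENSRNOG00000013766, Rnor 6.0 chr18:70733872-70762395, plus strand), the mitochondrial thiolase that closes the cycle, had 55.5, 87.4 and 65.2 CPM in ACS, against 160.0, 145 and 98.5 CPM in Control. Every ACS library was below every Control library, and the means were 69.4 ± 16.4 CPM in ACS and 135 ± 32.1 CPM in Control (SD, n = 3 each). Acaa2 had a log2 fold change of -0.95 (95% interval -1.63 to -0.28, edgeR adjusted p = 0.1003), and -0.82 without ACS replicate 1. Echs1, the short-chain enoyl-CoA hydratase, and Hadh, the short-chain hydroxyacyl-CoA dehydrogenase, each had a log2 fold change of -0.71, and their ACS libraries were also all below Control; without ACS replicate 1 the values were -0.48 and -0.38. Echs1 shares 608 bases with Paox on the opposite strand in the deposited annotation, so reads of the pair may not be separated.

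Hadha and Hadhb encode the alpha and beta subunits of the mitochondrial trifunctional protein, which handles long-chain substrates. Hadhb had 152, 393 and 308 CPM in ACS, against 312, 350 and 417 CPM in Control, and Hadha had 161, 300.0 and 252 CPM in ACS, against 295, 265 and 354 CPM in Control. Both were lowest in ACS replicate 1, and in both the groups overlapped. Fitted log2 fold changes were -0.34 for Hadhb (SE 0.374, edgeR adjusted p = 0.613) and -0.36 for Hadha, and without ACS replicate 1 they were -0.04 and -0.14. The share of Hadha in the summed FPKM of the pair was 44.8%, 36.9% and 38.5% in ACS, against 41.99%, 36.7% and 39.4% in Control, so the 2 subunits stood in similar proportions in libraries whose levels differed. The 2 genes start 301 bases apart on opposite strands, and their promoter windows share 200 bases. The Hadha window (GRCr8, chr6:31907551-31907800, plus strand), which lies between both starts, is shown for that reason. It holds none of the 3 motifs, so it has no capitals.
Hadha: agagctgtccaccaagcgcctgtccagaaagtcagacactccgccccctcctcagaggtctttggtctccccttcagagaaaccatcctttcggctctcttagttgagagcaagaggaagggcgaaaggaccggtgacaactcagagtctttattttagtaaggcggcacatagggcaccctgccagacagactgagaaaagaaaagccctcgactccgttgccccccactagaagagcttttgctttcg

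The 3 auxiliary enzymes found, which prepare unsaturated fatty acids for the cycle, were all lower in every ACS library than in any Control library, as were 14.8% of all genes tested. Their median was -0.80 with all libraries and -0.54 with ACS replicate 1 left out. None passed in edgeR or limma-voom, 2 were lower at an unadjusted p under 0.05 in edgeR, and DESeq2 and limma on log2(FPKM + 1) called Decr1 lower. Decr1 (ENSRNOG00000008236, Rnor 6.0 chr5:29573898-29601748, minus strand), the dienoyl-CoA reductase, had 11.2, 15.95 and 8.99 CPM in ACS, against 21.6, 29.2 and 25.3 CPM in Control. Its means were 12.1 ± 3.56 CPM in ACS and 25.3 ± 3.81 CPM in Control (SD, n = 3 each), and ACS replicate 3 rather than 1 was lowest. Decr1 had a log2 fold change of -1.07 (95% interval -1.74 to -0.40, edgeR adjusted p = 0.0748), and -1.02 (edgeR adjusted p = 0.0822) without ACS replicate 1. Ech1, a dienoyl-CoA isomerase and the most abundant of these per length, had 56.6, 119 and 74.2 CPM in ACS, against 127, 124 and 171 CPM in Control, a separation that ACS replicate 2 left narrow. Its log2 fold change was -0.75 (SE 0.330, edgeR adjusted p = 0.213). Eci1, an enoyl-CoA isomerase, had a log2 fold change of -0.80, and -0.54 without ACS replicate 1.

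The ketone body enzymes had a median log2 fold change of -0.56 with all libraries and of -0.42 with ACS replicate 1 left out. EdgeR, DESeq2, limma-voom and limma on FPKM called 0 of the 3, and 0 were under an unadjusted p of 0.05 in edgeR. Oxct1, which activates acetoacetate for use in muscle, had 185, 239 and 299 CPM in ACS, against 405, 456 and 305 CPM in Control. Acat1, which splits acetoacetyl-CoA, had 167, 212 and 248 CPM in ACS, against 329, 359 and 235 CPM in Control. In both genes ACS replicate 3 was highest in ACS and Control replicate 3 was lowest in Control, so that the groups nearly met in Oxct1 and overlapped in Acat1. Log2 fold changes were -0.69 (SE 0.306) and -0.56 (SE 0.295), with edgeR adjusted p of 0.217 and 0.291. Bdh1, hydroxybutyrate dehydrogenase, was the lowest member, at 1.97, 4.22 and 3.01 CPM in ACS against 4.93, 2.27 and 2.60 CPM in Control, and its log2 fold change of -0.08 had an interval of -1.11 to 0.95 and was 0.15 without ACS replicate 1.

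The thioesterases and uncoupling proteins held 3 of the 4 members with a positive fold change. EdgeR, limma-voom and limma on FPKM called 0 of the 4 genes, 1 was higher and 1 lower at an unadjusted p under 0.05 in edgeR, and DESeq2 called Ucp2 higher. Ucp2 (ENSRNOG00000017854, Rnor 6.0 chr1:165506361-165512744, plus strand), a carrier of the inner membrane with a broad tissue range that includes immune cells, had 94.0, 22.5 and 43.5 CPM in ACS, against 13.4, 5.997 and 17.3 CPM in Control. Every ACS library was above every Control library, and ACS replicate 1 was highest. The means were 53.3 ± 36.8 CPM in ACS and 12.2 ± 5.74 CPM in Control (SD, n = 3 each), and the fitted log2 fold change was 2.12 (95% interval 0.83 to 3.41, edgeR adjusted p = 0.0698). Without ACS replicate 1 it was 1.43 (edgeR adjusted p = 0.0865).

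Neutrophil markers were higher in ACS, as was Ucp2. Most macrophage markers had positive fold changes, and only 1 lymphocyte marker could be tested. The 11 neutrophil markers found summed to 458, 28.5 and 90.1 CPM in ACS, against 2.24, 1.55 and 7.23 CPM in Control. Of the 7 tested, 6 rose in edgeR, where 3.43% of all genes tested were called higher. DESeq2 called 6 of the 11 higher, edgeR without ACS replicate 1 called 6 of the 7, and limma on log2(FPKM + 1) called 4 of the 7. These called 7.03%, 4.99% and 2.26% of all genes higher. Limma-voom called 0. EdgeR without any 1 Control library also called 0, in fits where no gene of the table passed. All 7 passed the filter on low counts through the ACS libraries, where they are high. Mpo, Elane, Fcgr3a and Ly6g6e had too few counts to be tested, and Mpo was at 0 in ACS replicates 1 and 2. The 9 macrophage markers summed to 1776, 167 and 122 CPM in ACS, against 47.9, 79.8 and 67.2 CPM in Control. Lyz2 made up most of that sum, at 1553, 94.2 and 78.0 CPM in ACS against 22.2, 36.6 and 23.8 CPM in Control, and the other 8 markers summed to 222, 73.0 and 43.9 CPM in ACS, against 25.7, 43.2 and 43.4 CPM in Control. The log2 fold change was above 0 for 8 of the 9, with a median of 1.82, or 0.95 without ACS replicate 1. For 4 of them, Cd68, Itgam, Lyz2 and C1qb, every ACS library lay above every Control library, as in 16.7% of all genes tested. Adgre1 was lower in every ACS library than in any Control library, without passing in edgeR. It had 1.22, 0.412 and 0.949 CPM in ACS against 1.37, 3.19 and 1.69 CPM in Control. Csf1r, C1qa, Cd163 and Mrc1 overlapped between the groups. Of the 9, edgeR called Itgam higher with all libraries, Itgam and Lyz2 without ACS replicate 1 and none without any 1 Control library, DESeq2 called Cd163, Cd68, Itgam and Mrc1 higher, and limma-voom called 0. The 9 lymphocyte markers summed to 7.86, 3.04 and 2.34 CPM in ACS, against 4.73, 5.95 and 3.84 CPM in Control, and Cd4, the only one with enough counts to test, had a log2 fold change of -0.33 and did not pass. Ucp2 and the neutrophil sum had the same order over the 3 ACS libraries. Of the 4 red cell markers found, Hba1, Alas2 and Slc4a1 also had that order. Hbb did not, at 821, 454 and 996 CPM in ACS. Hba1, at 9351, 1265 and 3313 CPM, made up most of the red cell sum of 10321, 1747 and 4411 CPM in ACS. The part of any cell type in the Ucp2 values was not tested.

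Ucp3, the uncoupling protein of skeletal muscle, had 180, 805 and 151 CPM in ACS, against 247, 219 and 105 CPM in Control. Only ACS replicate 2 was outside the Control range. Its log2 fold change was 0.99 (SE 0.650, edgeR adjusted p = 0.392) with all libraries, and -0.24 without ACS replicate 2. Acot2, a mitochondrial acyl-CoA thioesterase, had 25.2, 68.7 and 14.9 CPM in ACS, against 22.0, 25.2 and 33.7 CPM in Control, again with ACS replicate 2 highest, and its log2 fold change was 0.43, or -0.48 without that library. Acot2 has close paralogs, among which the authors' counting could divide reads. Acot13 (ENSRNOG00000018415, Rnor 6.0 chr17:42241159-42253649, plus strand), a small thioesterase of the hotdog-fold family, went the other way, at 19.6, 16.7 and 24.1 CPM in ACS against 35.3, 33.8 and 32.7 CPM in Control. Its Control libraries lay within a narrow range well above ACS, at a log2 fold change of -0.75 (95% interval -1.31 to -0.20, edgeR adjusted p = 0.109). Acot13 was the only member that an edgeR fit leaving out 1 library called lower, at an adjusted p of 0.0476 without ACS replicate 3, where 3.01% of all genes were called lower and 9.72% higher.

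Ucp3 and Ucp2 lie next to each other on chromosome 1 in the deposited annotation (Rnor 6.0), on the same strand with 10154 bases between them. Ucp2 made up 52.8%, 5.63% and 38.1% of their summed FPKM in ACS, against 10.4%, 5.51% and 25.98% in Control, so ACS replicates 1 and 3 lay above the Control range and ACS replicate 2 lay inside it, near its lower end. Their promoters are shown because the neighbouring genes had different patterns over the libraries. The Ucp3 window (GRCr8, chr1:164227660-164227909, plus strand) holds AGGTCA at -155 and -50, in capitals, and the Ucp2 window (GRCr8, chr1:164251123-164251372, plus strand) holds none.
Ucp3: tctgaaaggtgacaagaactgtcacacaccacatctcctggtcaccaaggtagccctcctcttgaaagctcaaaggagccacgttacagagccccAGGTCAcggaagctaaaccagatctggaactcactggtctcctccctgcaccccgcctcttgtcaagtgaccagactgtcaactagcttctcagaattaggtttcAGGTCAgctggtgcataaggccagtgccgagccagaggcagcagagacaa
Ucp2: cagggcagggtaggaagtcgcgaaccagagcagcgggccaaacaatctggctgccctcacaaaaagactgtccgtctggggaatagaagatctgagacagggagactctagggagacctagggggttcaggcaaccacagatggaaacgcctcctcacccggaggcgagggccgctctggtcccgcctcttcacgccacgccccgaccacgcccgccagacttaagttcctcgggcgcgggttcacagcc

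**Figure D3:**
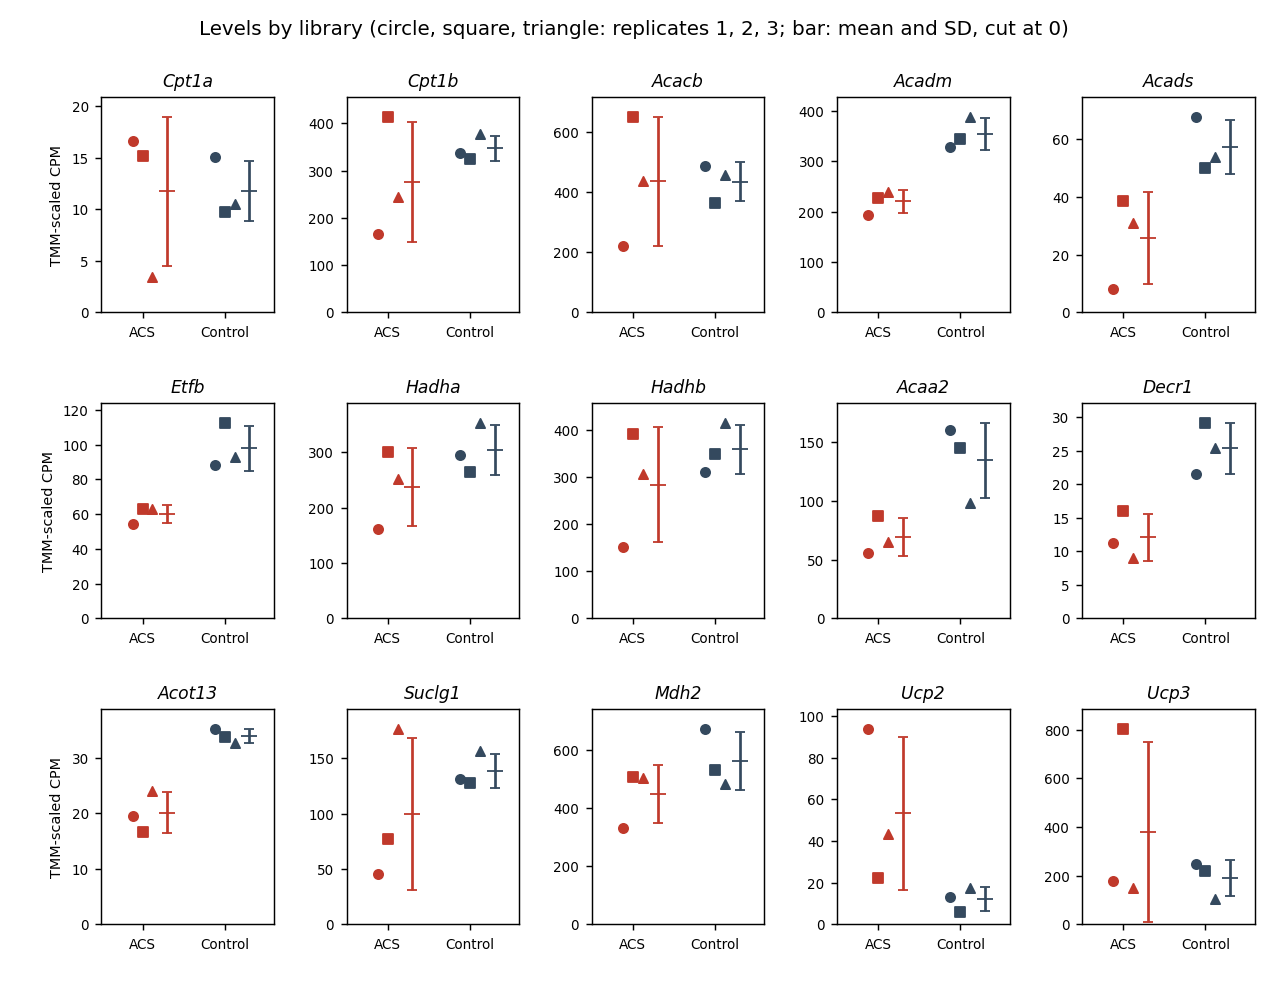
TMM-scaled CPM of 15 members in each library, ACS on the left and Control on the right of each panel, with the mean and SD beside the points and circles, squares and triangles for replicates 1, 2 and 3. The 3 ACS libraries lie below the 3 Control libraries for Acadm, Acads, Etfb, Acaa2, Decr1 and Acot13 and above them for Ucp2, and the groups overlap for the other members shown. ACS replicate 2 is the single high library for Ucp3, at 805 CPM.

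All 8 citrate cycle genes of the list had a fold change below 0, with a median of -0.41, or -0.16 without ACS replicate 1. None passed in edgeR, DESeq2, limma-voom or limma on FPKM, and 0 were under an unadjusted p of 0.05 in edgeR. Their median log2 ratio to the Control mean was -0.89 in ACS replicate 1, -0.23 in ACS replicate 2 and -0.07 in ACS replicate 3. Fh, fumarase, had the most negative value, with 81.7, 111 and 150.1 CPM in ACS against 184, 147 and 160 CPM in Control. The groups overlapped, and its log2 fold change was -0.52 (SE 0.294, edgeR adjusted p = 0.318), or -0.33 without ACS replicate 1. Dlst, the succinyltransferase subunit of the 2-oxoglutarate dehydrogenase complex, had the least negative value, at 179.8, 221 and 249.6 CPM in ACS against 280.4, 219 and 241 CPM in Control, with a log2 fold change of -0.19 (SE 0.267, edgeR adjusted p = 0.696), or -0.07 without ACS replicate 1.

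Mdh2, mitochondrial malate dehydrogenase, was the most abundant member per length. It had 333, 507 and 505 CPM in ACS, against 675, 533 and 483 CPM in Control, and a log2 fold change of -0.33 (SE 0.307, edgeR adjusted p = 0.548), which was -0.16 without ACS replicate 1. Only ACS replicate 1 lay well below the Control libraries. Suclg1, the alpha subunit of succinyl-CoA ligase, spread most within ACS among these 8, at 45.1, 77.5 and 177 CPM against 131, 128 and 156 CPM in Control, with ACS replicate 3 above every Control library. Its alternative beta subunits, Sucla2 for the ATP-forming and Suclg2 for the GTP-forming enzyme, stood in similar proportions: Sucla2 was 89.8%, 85.6% and 88.5% of their summed FPKM in ACS, against 87.1%, 87.7% and 85.5% in Control. Cs, citrate synthase, and Ogdh had log2 fold changes of -0.39 and -0.43, and of -0.13 and -0.29 without ACS replicate 1.

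**Figure D4:**
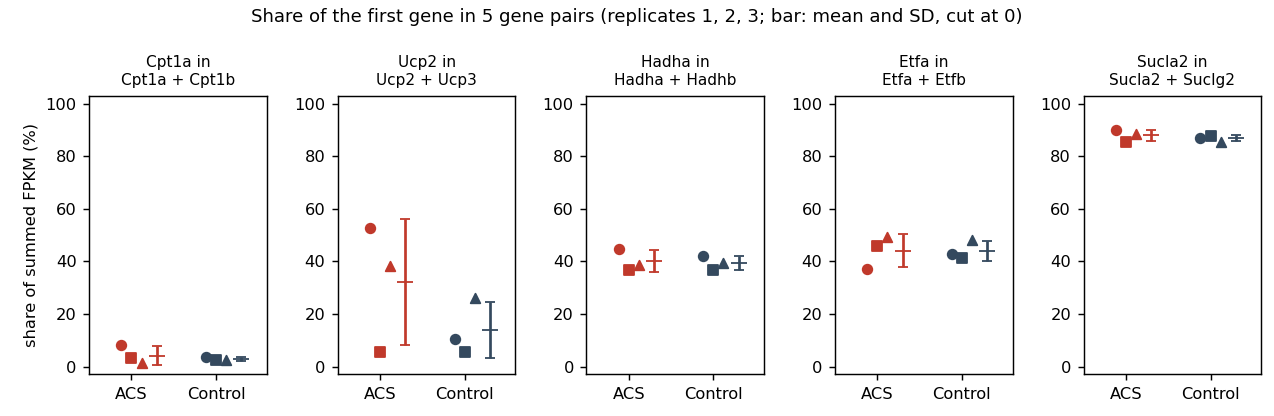
Share of the first gene in the summed FPKM of 5 gene pairs, in percent, in each ACS library on the left and each Control library on the right, with mean and SD. Shares of Hadha, Etfa and Sucla2 overlap between the groups within a narrow band, while the share of Ucp2 in ACS runs from 5.63% to 52.8%.

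Levels per length, taken from the authors' FPKM, put the members in a wide range. Mdh2 averaged 312 ± 108 FPKM in ACS and 477 ± 70.5 FPKM in Control (SD, n = 3 each), followed in Control by Cs at 289, Crat at 205, Acadm at 203 and Acadl at 193 FPKM. In Control 16 members were at 100 FPKM or more and 5 were below 10 FPKM. The lowest were Bdh1 with 1.26 ± 0.612 FPKM in ACS and 1.61 ± 0.668 FPKM in Control, and Cpt1a with 2.38 ± 1.45 FPKM in ACS and 3.04 ± 0.671 FPKM in Control (SD, n = 3 each). The median over the 39 members was 41.7 FPKM in ACS and 75.9 FPKM in Control, on a scale that divides by all counts, those of the mitochondrial chromosome included.

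The citrate cycle genes outside the list gave values of the same kind. All 15 that could be tested had a log2 fold change below 0, with a median of -0.41, and without ACS replicate 1 12 did, with a median of -0.25. None passed in edgeR, DESeq2, limma-voom or limma on FPKM, and 2 were lower at an unadjusted p under 0.05 in edgeR. Sdhb, the iron-sulphur subunit of succinate dehydrogenase, had 116, 180.3 and 195 CPM in ACS, against 286, 321 and 229 CPM in Control, and Idh2, the mitochondrial NADP-dependent isocitrate dehydrogenase, averaged 391 ± 56.4 CPM in ACS and 640.3 ± 142 CPM in Control (SD, n = 3 each). These were the 2 with an unadjusted p under 0.05. In both genes every ACS library lay below every Control library, as in 3 of the 15 genes and in 14.8% of all genes tested. Of 16 peroxisomal oxidation genes 14 had a fold change below 0, with a median of -0.45, or -0.23 without ACS replicate 1. EdgeR and limma-voom called 0 of the 16 and limma on FPKM 0 of the 14 that it tested, 3 were lower at an unadjusted p under 0.05 in edgeR, and DESeq2 called Amacr, the racemase of branched fatty acids, lower. Amacr had 2.99, 4.99 and 7.59 CPM in ACS, against 12.6, 10.7 and 12.8 CPM in Control, with a log2 fold change of -1.21 (SE 0.373, edgeR adjusted p = 0.0988).

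Mitochondrial housekeeping genes of import, protein folding and fusion formed a further list. Of 15 tested 12 had a fold change below 0, with a median of -0.26 on the log2 scale and of -0.06 with ACS replicate 1 left out, and 0 passed by edgeR, DESeq2, limma-voom or limma with FPKM, with 1 lower at an unadjusted p under 0.05. Mfn2 was listed at 0 in every library. The difference between this list and the oxidation genes was not tested. Markers of slow, oxidative fibres had values on the same side as most members: all 7 had a fold change below 0, with a median of -0.92, or -0.89 without ACS replicate 1, and their levels summed to 1893, 3324 and 1778 CPM in ACS, against 4310, 4085 and 3227 CPM in Control. EdgeR, limma-voom and limma on FPKM called 0 of the 7, and 3 were lower at an unadjusted p under 0.05 in edgeR, against 7.98% of all genes tested. DESeq2 called Myl3 and Tnni1 lower, where it called 2.28% of all genes lower. The 10 markers of skeletal muscle fibres tested had a median of -0.03, with 5 below 0 and 5 above. Myl2 was at 0 in ACS replicate 1, and without that library it was the 1 marker that passed in edgeR. The part of fibre type in the members' values was not tested. Fibroblast markers summed to 2338, 2414 and 2992 CPM in ACS, against 1092, 705 and 955 CPM in Control. Col1a1 and Col3a1 made up most of that sum, Dcn, Lum and Dpt overlapped between the groups, and Col1a2 was at 0 in every library. EdgeR with all libraries and limma-voom called 0 of the 6 tested, while DESeq2 called Col1a1 and Col3a1 higher. The 4 red cell markers found, mostly Hba1, summed to 10321, 1747 and 4411 CPM in ACS, against 1176, 445 and 1221 CPM in Control. The part of these cells in the members' values was not tested either.

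Regulators of these genes included the only calls of edgeR with all libraries among the pathway lists. Of 15 genes of the PPAR and PGC-1 axis, 1 rose and 1 fell in edgeR, where 3.43% of all genes tested were called higher and 0.707% lower. DESeq2 called Nrip1, Pdk4 and Ppard higher and Esrrb and Ppargc1b lower, limma-voom called Nrip1 and Esrrb, and limma on FPKM, which tested 14 of the 15, called Nrip1 and Ppargc1b. EdgeR without ACS replicate 1 called Nrip1, Pdk4, Ppard and Ppargc1a higher and Esrrb lower. Nrip1, the corepressor RIP140 that restrains oxidative genes in muscle, had 226, 425 and 402 CPM in ACS, against 60.4, 81.1 and 84.9 CPM in Control. Every ACS library was far above every Control library, with means of 351 ± 109 CPM in ACS and 75.5 ± 13.2 CPM in Control (SD, n = 3 each) and a log2 fold change of 2.22 (SE 0.337, edgeR adjusted p = 0.0176). Without ACS replicate 1 it was 2.45 (edgeR adjusted p = 0.00264). Leaving out Control replicate 1, 2 or 3 kept it between 2.03 and 2.27 but ended the call, at edgeR adjusted p of 0.154, 0.135 and 0.105, fits in which no gene of the table passed. Esrrb, an orphan nuclear receptor of the ERR family, was barely detected, with 1, 1 and 0 counts in ACS against 26, 15 and 15 counts in Control. It was called lower (edgeR adjusted p = 0.0375), a call that was lost without ACS replicate 2, without each Control library and with a term for replicate 3 of both groups. Only its Control libraries reached the filter's minimum count of 10, so the direction of this call is not independent of the filter.

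Ppargc1a and Ppargc1b, the genes of the coactivators PGC-1alpha and PGC-1beta, differed from each other. Ppargc1a had 53.3, 107 and 165 CPM in ACS, against 49.0, 56.6 and 35.3 CPM in Control, and ACS replicate 1 was the library inside the Control range. Its log2 fold change was 1.21 (edgeR adjusted p = 0.120), and 1.53 (edgeR adjusted p = 0.0205) without ACS replicate 1. Ppargc1b had 9.26, 7.62 and 24.1 CPM in ACS, against 57.2, 46.6 and 37.9 CPM in Control, all ACS libraries being lower. Its fitted log2 value was -1.79 (edgeR adjusted p = 0.0590), and -2.49 (edgeR adjusted p = 0.00634) without ACS replicate 3. Over all 18 settings Ppargc1b lay between -2.49 and -1.52 and passed in 7, with adjusted p between 0.00335 and 0.215. Ppard, the PPAR isoform prominent in muscle, had 44.3, 82.2 and 77.8 CPM in ACS, against 31.4, 16.3 and 32.5 CPM in Control, and Pdk4, a PPAR target that inhibits pyruvate dehydrogenase, had 2563, 5210 and 864 CPM in ACS, against 619, 447 and 650 CPM in Control. In both the lowest ACS library exceeded the highest Control library. In edgeR neither passed with all libraries (edgeR adjusted p = 0.0692 and 0.0647), while DESeq2 on all libraries called both, and both passed without ACS replicate 1 (edgeR adjusted p = 0.0223 and 0.0477). Pdk4 also passed without ACS replicate 3 (edgeR adjusted p = 0.0118). Over the 18 settings Pdk4 passed in 4, Ppard in 2 and Ppargc1a in 1.

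**Figure D5:**
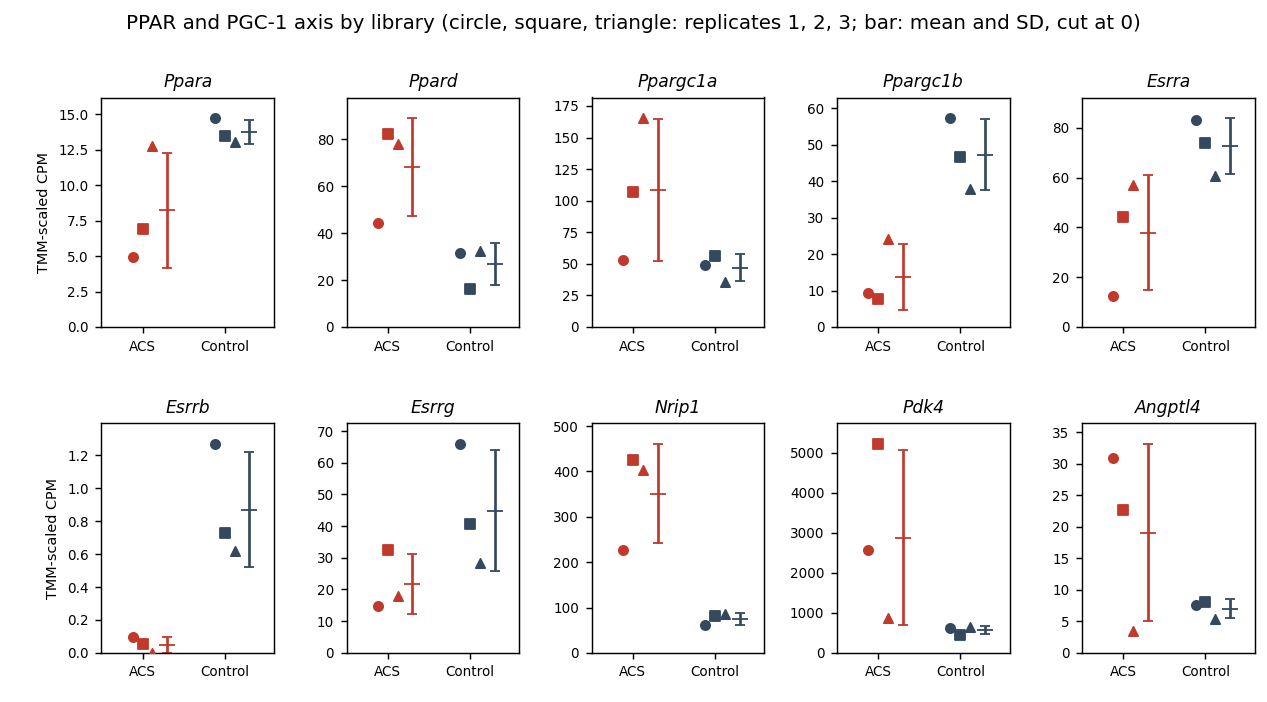
TMM-scaled CPM of 10 genes of the PPAR and PGC-1 axis in each library, ACS on the left and Control on the right, with mean and SD and circles, squares and triangles for replicates 1, 2 and 3. Nrip1, Ppard and Pdk4 lie higher and Ppara, Ppargc1b, Esrra and Esrrb lower in all 3 ACS libraries than in any Control library, and Ppargc1a is higher in ACS replicates 2 and 3 only.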

How the data were processed

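Sample titles gave the groups and the replicate numbers. Values were deposited in 1 table of whole-number read counts and FPKM per gene. The submitters' processing notes list HISAT2 2.0.4, StringTie 1.3.0 and the build Rnor 6.0. No source used here gives the counting tool or its strand setting, and 5 members overlap a gene on the opposite strand. The authors' FPKM equalled the count over 1 gene length and the column total, within 0.1%, in all 8093 genes with at least 50 counts in every library.

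Low counts were removed by filterByExpr of edgeR (minimum count 10, minimum total 15), and the rest were scaled by TMM and tested with edgeR's quasi-likelihood test on 6 libraries with Benjamini-Hochberg adjustment over 12873 genes, at a threshold of 0.05. The common biological coefficient of variation was 0.381. Library totals lay between 14340865 and 21003928 counts. Replicates differed beyond sampling noise (chi-square per degree of freedom 38.2 to 721). Alternatives were DESeq2, limma-voom, limma with FPKM (a pseudocount of 1 or 0.1, genes reaching 1 FPKM in 3 libraries), other scalings, filters and terms, and leaving out each library. The test was run on simulated data first. Tools were DESeq2 1.42.0, edgeR 4.0.16, matplotlib 3.10.9, limma 3.58.1 and R 4.3.3.

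The members and all gene lists were chosen with earlier results of these data known. Values per library are given for the members with the most negative, most positive and (per length) highest values in each role, for both isoform pairs, and for up to 3 genes of each other list. Slc25a20, Mlycd, Etfb, Hadha, Acot2, Suclg1, Ppard, Ppargc1a and Pdk4 were added after their values were seen. Ppargc1b is described as well, without passing in edgeR with all libraries (edgeR adjusted p = 0.0590) or without ACS replicate 1 (edgeR adjusted p = 0.0738). Sdhb, Amacr and Mccc1 were not the most abundant genes of their lists. Each had the smallest edgeR adjusted p of its list, without passing in edgeR with all libraries.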

Additional observations from a re-analysis of the deposited data

How the results depend on the processing

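Over 17 alternatives, 34 of the 39 members kept 1 direction and 5 turned. Members called higher numbered 1, in each case Ucp2, with DESeq2, with no low-count filter and with the replicate block (edgeR adjusted p = 0.0214), and members called lower numbered 4 with DESeq2 and 1, Decr1, with limma on log2(FPKM + 1). Leaving out 1 library gave 0 members higher and 0 to 1 lower. The members' median log2 fold change stayed between -0.88 and -0.34.

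Over all genes, 442 were called higher and 91 lower. The count of higher genes was 1320 with DESeq2, 262 with limma-voom, 249 with limma on log2(FPKM + 1), 199 with log2(FPKM + 0.1), 755 with no filter and 248 with a term for the 2 libraries whose descriptions hold "ji" (replicate 3 of both groups). The count of lower genes was 429 with DESeq2, 228 with library totals, 268 with limma on log2(FPKM + 1), 153 with no filter and 32 with the "ji" term. Leaving out 1 library gave 0 to 1286 higher and 0 to 398 lower. No gene passed without any 1 Control library, although 2075, 2063 and 2289 genes had an unadjusted p under 0.05 without Control replicates 1, 2 and 3. The causes were not tested.

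The log2 fold change of Acacb, 0.01, was -0.012 with DESeq2, -0.14 with limma-voom, -0.25 with library totals, -0.022 with TMM without mitochondrial-chromosome and haemoglobin genes, -0.43 and -0.44 with limma on log2(FPKM + 1) and log2(FPKM + 0.1), -0.021 with no filter and -0.11 with the replicate block, and -0.43 to 0.32 with 1 library left out. Acot2, 0.43, was -0.14 and -0.17 with the same limma settings and -0.48 to 0.80 with 1 library left out. Cpt1a, -0.01, was 0.0066 with DESeq2 size factors, 0.024 with a filter of 50 counts and -0.34 to 0.43 with 1 library left out. With 1 library left out Bdh1 lay between -0.41 and 0.28 and Ucp3 between -0.24 and 1.37. Bdh1 was not tested under the filter of 50 counts, which left 38 members.

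Scaling by library totals moved the median of all genes to -0.32 and the share of higher genes among calls to 60.2%, from 82.9%; with limma on FPKM they were -0.30 and 48.2%, or -0.37 and 60.3% with the smaller pseudocount. The members' median minus that of all genes was -0.50 with TMM, -0.47 with library totals and -0.57 with limma on log2(FPKM + 1). Same-numbered libraries of the 2 groups correlated at -0.06, 0.01 and 0.04 in their deviations from the group means. With so few libraries a group, these values cannot decide whether the numbers pair them. The replicate block gave 442 higher and 63 lower.

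With 3 libraries a group the median 95% interval of a member spanned 1.42 log2 units, or 0.71 to either side, so differences smaller than that were mostly not detectable even before adjustment.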

Other observations

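Genes that oxidise branched-chain amino acids and odd-chain fatty acids also had mostly negative fold changes. Of 18 tested, 17 had a log2 fold change of ACS over Control below 0, with a median of -0.59, or 16 and -0.37 without ACS replicate 1. EdgeR, limma-voom and limma on FPKM called 0 of the 18, 6 were lower at an unadjusted p under 0.05 in edgeR, against 7.98% of all genes tested, and DESeq2 called Mccc1 lower. In 10 of them every ACS library lay below every Control library, as in 14.8% of all genes tested. Mccc1, a subunit of methylcrotonyl-CoA carboxylase in leucine breakdown, averaged 19.6 ± 4.54 CPM in ACS and 34.8 ± 2.34 CPM in Control (SD, n = 3 each), with a log2 fold change of -0.82 (SE 0.261, edgeR adjusted p = 0.104).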
